A study of Homo sapiens with 12 samples.

Results

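The drug and steroid metabolizing enzymes described here are the cytochromes P450 (CYP), the UDP-glucuronosyltransferases of the UGT1A and UGT2 families, the cytosolic sulfotransferases (SULT), the glutathione S-transferases (GST) and the microsomal glutathione S-transferases (MGST). Members were the protein-coding genes of these families, by symbol and without CYP51A1, that had at least 10 counts in at least 3 libraries. Of 106 such genes in the count table, 53 were members: 25 CYP, 2 UGT1A, 5 UGT2, 8 SULT, 10 GST and 3 MGST genes. The choice used only the size of the counts and no test between groups. A gene could still enter through a group in which it was high. The series counted 62475 genes in all, of which 14435 were tested, and 52 members were among these. The exception was CYP3A4, which was too low for the test.

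RNA was sequenced from HepG2 cells, an established human liver cancer line. The 12 libraries form 4 groups of 3 biological replicates: cells with wild-type HDAC1 (WT) or with HDAC1_S434A (S434A), each grown in the absence or presence of H89. The groups in the absence of H89 are called control WT and control S434A below. HDAC1 is a class I histone deacetylase, S434A replaces a serine by alanine, and H89 inhibits protein kinase A (PKA). The sources used here do not give how the mutant was made, how many clones were used, or the dose and duration of H89.

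Liver cells clear lipophilic drugs, steroids and bile acids in steps. CYPs are membrane-bound haem enzymes that oxidize the substrate and take electrons from a reductase. UGTs then attach glucuronic acid, SULTs a sulfate group and GSTs glutathione, which makes the product water soluble, and transporters export it. Nuclear receptors and the aryl hydrocarbon receptor (AHR), a ligand-activated transcription factor, set the transcription of many of these genes in hepatocytes.

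Several members come from tandem duplications. The windows printed here lie before the start of each gene. Their identity therefore does not measure how well a count can be assigned to a single copy. The 250 bases before the start of GSTA1 (minus strand, chr6:52803817-52804066, GRCh38.p14, RefSeq) and of GSTA2 (minus strand, chr6:52763476-52763725) are shown because both genes had among the largest differences. Capitals mark the 7 bases at which the pair differ, and 243 of 250 bases (97.2%) were identical.
GSTA1: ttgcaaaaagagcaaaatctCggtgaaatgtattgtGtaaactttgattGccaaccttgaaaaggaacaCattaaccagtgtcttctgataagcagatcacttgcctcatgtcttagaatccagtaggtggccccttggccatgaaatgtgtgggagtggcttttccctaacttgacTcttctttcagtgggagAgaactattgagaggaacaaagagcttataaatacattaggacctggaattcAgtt
GSTA2: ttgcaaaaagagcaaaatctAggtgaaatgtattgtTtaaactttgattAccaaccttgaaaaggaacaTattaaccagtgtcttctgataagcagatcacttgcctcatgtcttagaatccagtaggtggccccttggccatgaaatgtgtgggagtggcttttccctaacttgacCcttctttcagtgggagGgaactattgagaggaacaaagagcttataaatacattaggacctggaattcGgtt
The UGT2B10 sequence (plus strand, chr4:68815744-68815993) and the UGT2B11 sequence (minus strand, chr4:69214749-69214998) belong to a pair of UGT2B genes of the same chromosome that moved together in the counts. Of 246 aligned bases 229 (93.1%) were identical, and capitals mark the 21 bases of each that differ or have no partner.
UGT2B10: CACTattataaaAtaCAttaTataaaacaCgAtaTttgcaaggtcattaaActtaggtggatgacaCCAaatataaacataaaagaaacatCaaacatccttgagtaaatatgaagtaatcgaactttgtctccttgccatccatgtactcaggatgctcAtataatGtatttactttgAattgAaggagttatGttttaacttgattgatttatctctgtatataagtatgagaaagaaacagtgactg
UGT2B11: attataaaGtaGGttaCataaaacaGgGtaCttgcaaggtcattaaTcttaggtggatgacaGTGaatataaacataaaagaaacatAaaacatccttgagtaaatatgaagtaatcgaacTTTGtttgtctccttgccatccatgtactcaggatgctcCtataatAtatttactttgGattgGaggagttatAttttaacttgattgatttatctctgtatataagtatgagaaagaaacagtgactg
The third sequence set is CYP1A1 alone (minus strand, chr15:74725529-74725778), a classical target of AHR, shown because its count rose with H89 in both genotypes. Capitals mark GCGTG, the core of the element to which AHR with its partner ARNT binds, at 57 to 53 bases before the start.
CYP1A1: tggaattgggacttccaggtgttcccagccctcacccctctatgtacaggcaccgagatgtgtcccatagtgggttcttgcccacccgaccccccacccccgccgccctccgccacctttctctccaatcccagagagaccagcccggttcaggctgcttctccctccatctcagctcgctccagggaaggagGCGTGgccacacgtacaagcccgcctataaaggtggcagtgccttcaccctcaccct
RefSeq held this window for 43 of the 53 members. The letters GCGTG, searched on both strands, were in 9 of these 43 (20.9%) and in 32.2% of all 34943 promoters of the same length. The cAMP response element TGACGTCA was in 1 member, SULT1C4, and in 1.63% of all promoters. The antioxidant response element TGACNNNGC was in 7 members (16.3%) and in 10.9% of all. The nuclear receptor hexamer AGGTCA was in 11 members (25.6%) and in 12.1% of all. UGT2B10 and UGT2B11 both held TGACNNNGC and AGGTCA, and in both the matches overlapped each other. These matches describe the letters only.

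Library totals were 27763604 to 37187794 counts in control WT and 17562754 to 22648485 in the other 9 libraries. Genes of ribosomal proteins held 19.4% to 19.98% of counts in control WT and 7.37% to 11.5% elsewhere. Mitochondrially encoded genes took 1.48% to 1.51% in control WT and 3.16% to 7.02% elsewhere. Among S434A libraries without H89, replicate 1 stood apart, with the highest mitochondrial share and 0.293% of counts from the albumin gene ALB, against 1.82% and 2.43% in replicates 2 and 3. The 10 hepatocyte markers summed to 73000 to 73500 CPM (counts scaled to library size with TMM factors) in control WT and to 33600 to 54600 elsewhere. Markers of fibroblasts (7 genes) summed to 17.8 to 39.7 CPM, of which nearly all was PDGFRB, with COL1A2 and DCN at 0, and 4 markers of endothelium summed to 4.41 to 15.2 CPM, with KDR at 0. The highest sums of both lists were in control S434A. Blood markers summed to 4330 to 4460 CPM in control WT and 1850 to 2870 elsewhere, almost all LYZ, with PTPRC and HBB at 0. A point mutation cannot be seen in gene counts, so the genotype labels were not checked here. The part of these shifts in the results below was not tested.

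In WT cells without H89, members summed to 5155 ± 34.2 CPM (mean ± SD, n = 3), and conjugating enzymes made up most of it. SULT genes summed to 2188 ± 19.1 CPM, MGST genes to 1208 ± 20.7, GST genes to 1163 ± 5.83 and UGT2 genes to 159.7 ± 4.93. Bile acid and sterol CYPs summed to 268.6 ± 3.06 CPM, nearly all CYP27A1, and the xenobiotic CYPs of families 1 to 3 to 57.2 ± 0.745. Per kilobase of exon, averaged over the 12 libraries, the highest members were SULT2A1 at 291 CPM per kb, GSTO1 at 215, MGST2 at 110.0 and CYP27A1 at 95.7. The lowest were SULT1B1 at 0.0711 and CYP3A4 at 0.0796 CPM per kb.

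Some enzymes typical of adult liver, and other genes of these families, were outside the set or close to its edge. Of the 53 family genes that missed the threshold, 20 had no count in any library and 37 had at most 1 in every library. CYP2C8, CYP2B6 and GSTP1 had at most 1 count in any library, UGT2B15 had none and UGT2B17 at most 2. CYP2E1 reached 5 counts, CYP1A2 8, and just outside the threshold SULT2B1 reached 13 and CYP17A1 10. Just inside, CYP3A4, the main drug-oxidizing CYP of adult liver, had 10 counts in 3 libraries, CYP2R1 in 6 and CYP7A1 in 8. CYP3A4 lay at 0.289 to 0.481 CPM in control WT, 0.127 to 0.236 in H89-treated WT, 0.0538 to 0.166 in control S434A and 0.202 to 0.464 in H89-treated S434A.

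The other groups differed from control WT in the balance of these groups of enzymes. SULT genes summed to 703.5 ± 26.6 CPM in H89-treated WT, 935 ± 98.1 in control S434A and 715 ± 3.5 in H89-treated S434A, and GST genes to 446 ± 13.7, 654 ± 30.1 and 452 ± 12.9. Xenobiotic CYPs summed to 149.7 ± 4.75 CPM in H89-treated WT, 113.5 ± 22.9 in control S434A and 141.9 ± 3.06 in H89-treated S434A, all above the 57.2 of control WT. Most of this sum was CYP2W1 and CYP1A1. CYP2W1 averaged 25.78 CPM in control WT, 56.71 in H89-treated WT and 70.97 in control S434A, and CYP1A1 13.31, 64.45 and 20.53. The means of CYP2U1, CYP3A4, CYP3A5, CYP3A7 and CYP3A43 were lower in control S434A than in control WT. In every library of these 3 groups the SULT, GST, MGST and UGT2 sums were below, and the xenobiotic CYP and family 4 CYP sums above, all those of control WT. Each count is a share of its library, so less RNA of a gene per cell, fewer cells expressing it and more RNA of other genes cannot be told apart.

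**Figure D1:**
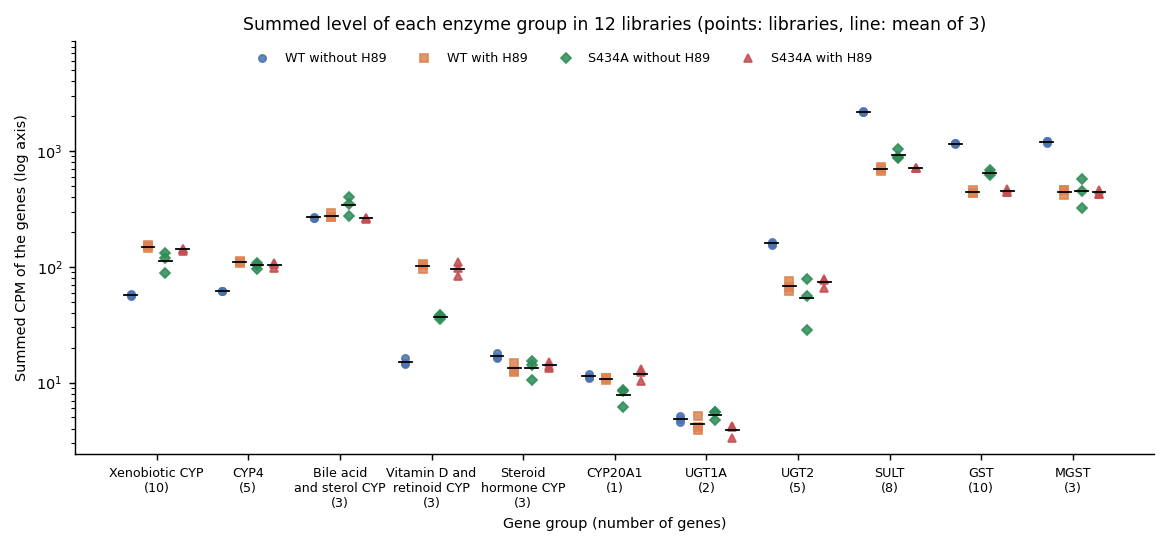
Summed CPM of the members of each enzyme group (log axis) in each of the 12 libraries, as points by group with lines at the means. SULT, GST, MGST and UGT2 sums are highest in the 3 WT libraries without H89, while the sums of xenobiotic CYPs and of vitamin D and retinoid CYPs are lowest there.

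Without H89, S434A cells had lower counts than WT cells for all 5 UGT2 and all 3 MGST members, and higher counts for 7 of 24 CYPs. A member was called where the fold change was over 2 and the adjusted p of edgeR's quasi-likelihood test was under 0.05, the thresholds of the series design. By this rule 8 members were higher and 13 lower in S434A, while 11.6% of the 14435 genes tested were called higher and 11.3% lower. The 8 members are 15.4% of 52, near the share of all genes, and the 13 are 25.0%. The members called higher were CYP2S1, CYP2W1, CYP2D6, CYP4F2, CYP8B1, CYP24A1, CYP21A2 and UGT1A3. Those called lower were UGT2A3, UGT2B4, UGT2B7, UGT2B10, UGT2B11, SULT1E1, SULT2A1, GSTA1, GSTA2, MGST1, MGST2, MGST3 and CYP3A7. At any fold, 16 members passed the test as higher and 22 as lower, against 29.0% and 29.3% of all genes. The median log2 fold change was -0.32 over members and -0.04 over all genes. Without replicate 1 of control S434A, 7 members were called higher and 9 lower, and CYP2D6 (0.81), MGST1 (-0.76), SULT1E1 (-0.97), UGT2A3 (-0.74) and UGT2B7 (-0.98) lost their call.

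In WT cells with H89, 15 members were called lower, all of them conjugating enzymes, and 8 were called higher, 7 CYPs and UGT1A3. Not every conjugating enzyme fell, as SULT1B1 also passed as higher at 0.93 and others did not pass. Of the 24 CYPs tested, 11 passed as higher at any fold and 2 as lower. Of all genes tested, 15.8% were called lower and 22.2% higher, so the members' share was above that of all genes for lower calls (28.8%) and below it for higher calls (15.4%). At any fold 21 members passed as lower and 13 as higher, against 30.9% and 38.8% of all genes. Lower were 5 SULT, 5 GST, 2 MGST and 3 UGT2 members, and no CYP was called lower. A CYP was called lower in other fits: CYP19A1 (-1.13) and CYP20A1 (-1.09) with the GC and length trends described below removed, and CYP7A1 without replicate 1 of control S434A (-1.07) and with RLE factors, the library scaling of DESeq2. Higher were CYP1A1, CYP2S1, CYP2W1, CYP4F2, CYP4F3, CYP21A2, CYP24A1 and UGT1A3. With RLE factors in place of TMM, 5 members were called higher and 17 lower, so the share of higher calls went from 34.8% to 22.7%. CYP2W1, CYP4F3 and CYP21A2 lost their call under it. All genes had a median log2 fold change of 0.20 with TMM and 0.05 with RLE, and members one of -0.22 with TMM.

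In S434A cells, H89 came with fewer calls: 6 members were higher (CYP1A1, CYP24A1, CYP3A5, CYP3A7, SULT1B1 and UGT2A3) and 2 lower (GSTA2 and GSTM3). Of all genes, 15.2% were called higher and 2.35% lower, close to the members' 11.5% and 3.85%. At any fold 9 members passed as higher and 15 as lower, against 29.3% and 22.7% of all genes, and 7 of the 15 were GST members. Without replicate 1 of control S434A, 4 members were called higher and CYP3A5 (0.68) and SULT1B1 (0.94) lost their call. The effects of H89 in WT and in S434A share no library: CYP1A1 and CYP24A1 were called higher in both (2 of 8 and 2 of 6), and GSTA2 and GSTM3 lower in both (2 of 15 and 2 of 2). How many of all genes were called in both was not counted, so this overlap is a description only.

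With H89 in both genotypes, no member was called: 0 of 52 were higher and 0 lower in S434A than in WT, and 0.0% of all genes were called in either direction by edgeR. No member had an unadjusted p under 0.05, while 589 of all genes did, and DESeq2 called 1 gene, which was no member. The log2 differences ran from -0.53 for UGT1A3 to 0.40 for CYP3A7, and 51 of 52 members lay within 0.5 of zero. By libraries, 3 members lay wholly above and 2 wholly below in S434A, against 8.8% and 8.46% of all genes. For 48 of 52 members the size of the difference with 2 standard errors added stayed under a log2 of 1.

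The difference between the effects of H89 (S434A minus WT) was called for 20 members, 11 higher and 9 lower, while 11.7% and 12.4% of all genes were called. A higher difference means that H89 lowered the gene less, or raised it more, in S434A. This held for GSTA1, GSTA2, all 3 MGST members, SULT2A1, UGT2B4, UGT2B7, UGT2B10, UGT2B11 and CYP3A7. The differences were lower for CYP2D6, CYP2S1, CYP2W1, CYP4F2, CYP4F11, CYP8B1, CYP21A2, CYP24A1 and UGT1A3. At any fold 18 differences passed as higher and 15 as lower (24.0% of all genes in each direction). This difference, the comparison of control S434A with control WT and both effects of H89 share libraries, so these values are given side by side only.

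Counted by libraries, 17 members lay wholly above and 23 wholly below WT in control S434A, against 29.0% and 33.7% of all genes. With H89 in WT, 15 members lay wholly above and 24 wholly below (47.6% and 35.5% of all genes), and with H89 in S434A 10 and 15 (33.1% and 23.2%).

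**Figure D2:**
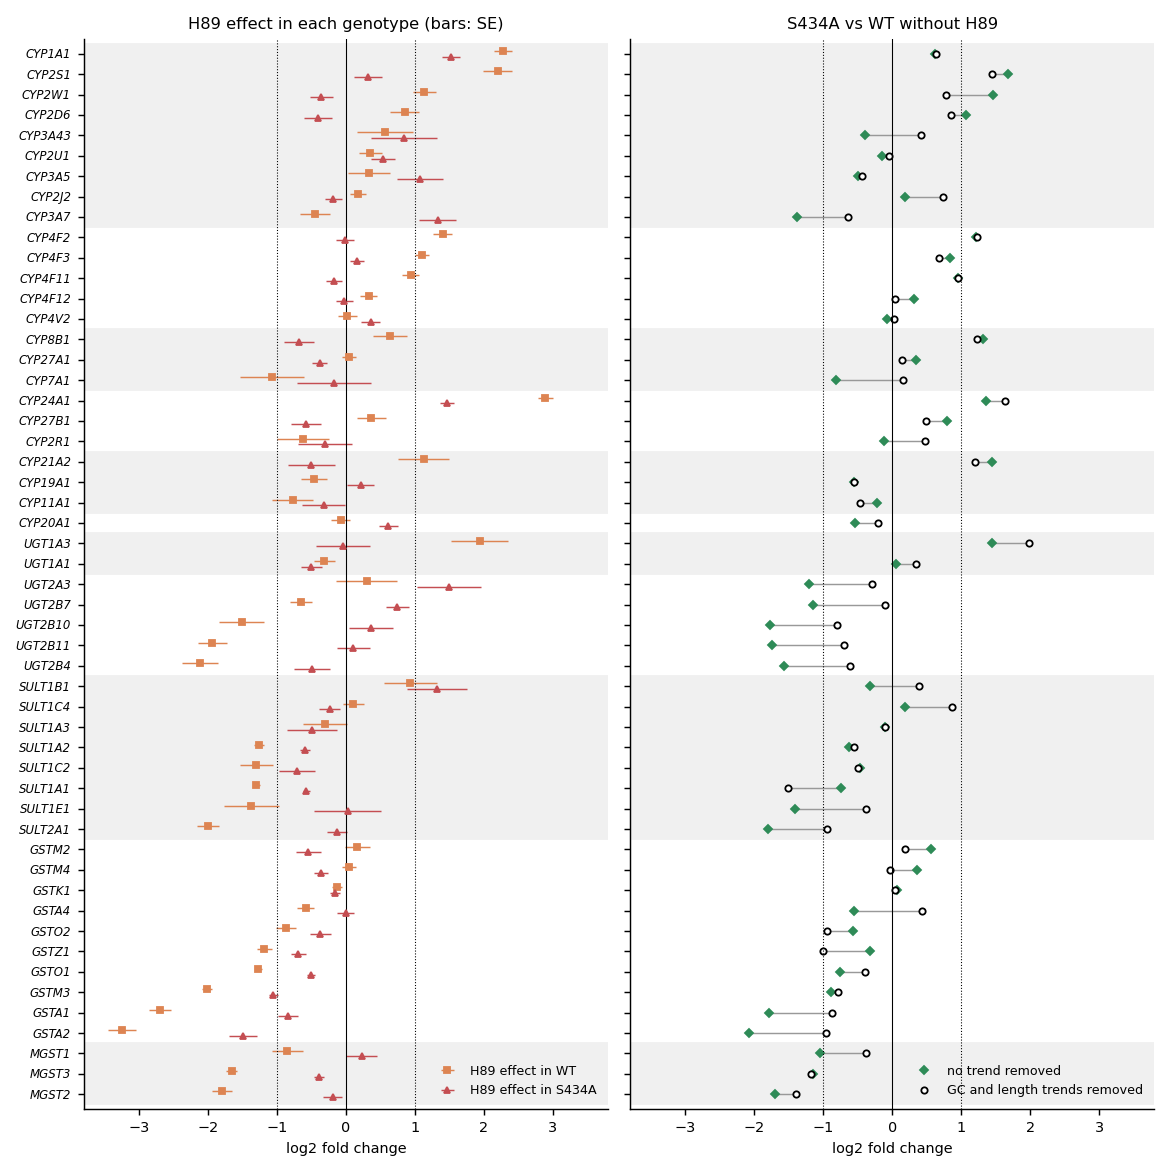
Log2 fold change (horizontal) of each of the 52 tested members (1 line each, shaded by enzyme group, dotted lines at 1 and -1). The left panel gives the effect of H89 in WT (squares) and in S434A (triangles) with SE bars, where CYP1A1 and CYP24A1 are beyond 1 and GSTA2 and GSTM3 beyond -1 in both, and the right panel gives control S434A against control WT with no trend removed (filled) and with the GC content and length trends removed (open), where 6 of 8 higher and 2 of 13 lower calls remained.

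GC content moved with these calls. Members called higher in control S434A had a median GC content of 57.8% and those called lower 40.8%, while all members had a median of 46.4% and all tested genes 49.7%. For the effect of H89 in WT the medians were 54.2% for higher and 45.4% for lower calls, and in S434A they were 42.8% and 44.3%. A smooth trend of each library on GC content and exon length was then removed by an offset. Thereafter 6 members were called higher and 3 lower in control S434A, against 5.07% and 6.3% of all genes. Of the higher calls 6 of 8 remained, and of the lower calls 2 of 13, MGST2 and MGST3, with SULT1A1 added. For H89 in WT, 10 members were then called higher and 17 lower (13.4% and 14.8% of all genes), with 7 of 8 and 13 of 15 calls kept. At any fold 16 and 16 members then passed in control S434A (29.9% and 29.9% of all genes), 16 and 23 with H89 in WT (38.1% and 35.4%) and 4 and 24 with H89 in S434A (20.9% and 22.3%). For H89 in S434A, 2 were called higher and 6 lower (2.37% and 3.13%), so the share of higher calls went from 75.0% to 25.0%. For the difference of effects, 4 were higher and 9 lower (7.2% and 6.0%), and at any fold 15 and 15 (24.9% and 24.6%). There the share of higher calls went from 55.0% to 30.8%. GSTA4 fell in control S434A by 0.56 on the log2 scale and with H89 in WT by 0.58, and stood at 0.43 and 0.11 with the trends removed. Changes given below are log2 fold changes from the fit with no trend removed, unless stated, and those of control S434A are against control WT.

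**Figure D3:**
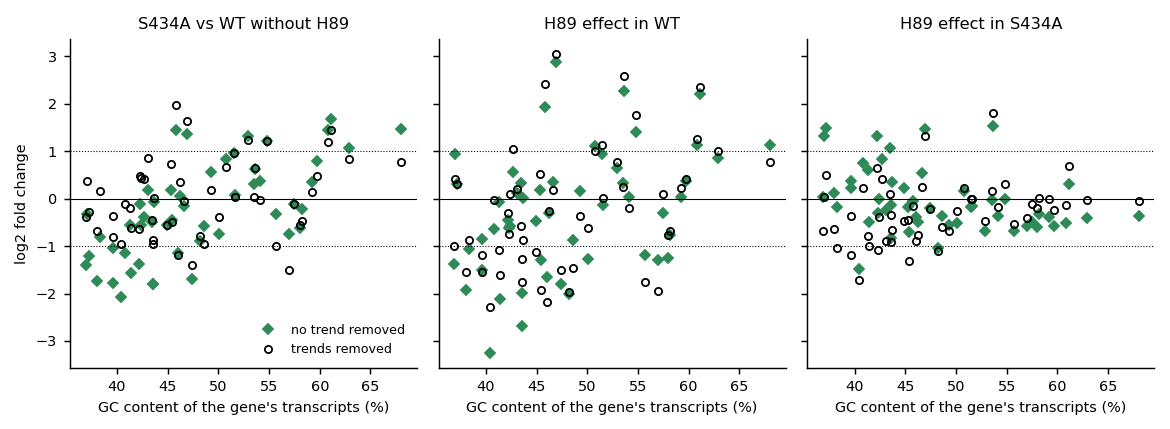
Log2 fold change of each tested member (vertical) against the GC content of its transcripts in percent (horizontal), for 3 comparisons, before and after the GC and length trends of each library were removed. In control S434A against control WT, UGT2B10 moves from -1.77 to -0.81 and CYP2W1 from 1.46 to 0.78 when the trends are removed.

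Among the CYPs that act on drugs and other foreign compounds, 3 of 9 tested were called higher in control S434A and 1 lower, 3 were called higher with H89 in WT, and 3 with H89 in S434A. Of all genes 11.6% were called higher and 11.3% lower in control S434A, and 22.2% and 15.2% were called higher with H89 in WT and in S434A. The counts with the trends removed were 1 higher and 0 lower in control S434A, 4 higher with H89 in WT and 1 higher with H89 in S434A. CYP1A1 (chromosome 15, 75011883 to 75017877, hg19 as are all gene positions here), which oxidizes polycyclic aromatic hydrocarbons, was at 13.8, 12.8 and 13.2 CPM in control WT and at 68.6, 62.6 and 62.2 in H89-treated WT. In S434A it was at 23.1, 21.8 and 16.7 CPM without H89 and at 52.7, 68.1 and 56.8 with H89. All 6 H89 libraries lay above all 6 libraries without it, and control S434A did not overlap control WT. CYP1A1 rose with H89 by a log2 fold change of 2.27 in WT (SE 0.13, edgeR adjusted p = 7.58e-08) and 1.53 in S434A (SE 0.13, adjusted p = 2.37e-05), and the effects differed by -0.75 (adjusted p = 0.00563). Without H89 it was higher in S434A by 0.62 (SE 0.13, adjusted p = 0.00164).

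CYP2S1 (chromosome 19, 41699115 to 41713444), an extrahepatic CYP also under AHR control, was at 1.77, 2.25 and 2.00 CPM in control WT, 9.97, 8.74 and 8.86 in H89-treated WT, 8.50, 6.37 and 4.36 in control S434A and 8.77, 7.61 and 7.58 in H89-treated S434A. Control WT was below every other library, and the S434A groups overlapped. Its log2 fold change was 1.68 in control S434A (SE 0.22, adjusted p = 6.33e-05), 2.20 with H89 in WT (SE 0.22, adjusted p = 4.85e-06) and 0.32 with H89 in S434A (adjusted p = 0.206). The last passed at 0.70 (adjusted p = 0.000932) with the trends removed and at 0.58 (adjusted p = 0.00805) without replicate 1 of control S434A. CYP2W1 (chromosome 7, 1022817 to 1029276), a CYP found in fetal gut and tumours, was at 25.4, 25.6 and 26.4 CPM in control WT, 53.3, 62.4 and 54.4 in H89-treated WT, 87.7, 75.1 and 50.1 in control S434A and 57.1, 49.8 and 59.1 in H89-treated S434A. Again control WT was lowest, and control S434A overlapped both H89 groups, with 2 of its 3 libraries above all of theirs. Its log2 fold change was 1.46 in control S434A (SE 0.17, adjusted p = 2.94e-05) and 1.14 with H89 in WT (SE 0.17, adjusted p = 0.000115), but 0.78 and 0.77 with the trends removed, which ended both calls. The second value was also under the fold threshold without replicate 2 of H89-treated WT (0.91), without replicate 2 of control S434A (0.98) and without replicate 1, 2 or 3 of H89-treated S434A (0.98 each).

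The remaining xenobiotic CYPs were low. CYP2D6, which oxidizes many basic drugs and has a similar pseudogene beside it, averaged 0.779 ± 0.072 CPM in control WT and 1.63 ± 0.46 in control S434A, a log2 fold change of 1.06 (adjusted p = 0.00131) that became 0.85 with the trends removed. CYP3A7, the fetal liver CYP3A, averaged 0.988 ± 0.053 CPM in control WT and 0.376 ± 0.15 in control S434A, and 0.953 ± 0.068 in H89-treated S434A. It fell by 1.38 in S434A (adjusted p = 0.000812) and rose with H89 in S434A by 1.33 (adjusted p = 0.00267), and neither call remained with the trends removed (-0.63 and 0.65). CYP3A7 shares 42.6% of its exon bases with a readthrough gene. CYP3A5, which oxidizes many of the same drugs as CYP3A4, rose with H89 in S434A by 1.07 (adjusted p = 0.0195), against 0.10 with the trends removed. CYP2U1, a fatty acid hydroxylase, rose with H89 in S434A by 0.54 (adjusted p = 0.0235), but gave 0.25 (adjusted p = 0.155) with the trends removed and 0.41 (adjusted p = 0.052) without replicate 1 of control S434A. CYP2J2, an arachidonic acid epoxygenase, and CYP3A43 passed in no comparison with no trend removed. CYP2J2 passed, once the trends were removed, at 0.74 in control S434A, 0.52 with H89 in WT and -0.44 with H89 in S434A, and its effects of H89 differed by -0.96. CYP3A43 was then called higher with H89 in WT at 1.05 (adjusted p = 0.00788), where 0.57 with no trend removed also passed without replicate 1 of control S434A.

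Of the family 4 CYPs, which hydroxylate fatty acids and leukotrienes, 4 of 5 passed as higher in control S434A and 4 of 5 with H89 in WT. Of all genes 29.0% and 38.8% passed as higher in the same order. With the trends removed 3 were higher in control S434A, and 4 were higher and 1 lower with H89 in WT. The shares of all genes were then 29.9% higher in control S434A, and 38.1% higher and 35.4% lower with H89 in WT. CYP4F3 (chromosome 19, 15751707 to 15773635), which inactivates leukotriene B4, was at 20.4, 20.1 and 20.8 CPM in control WT, 43.2, 41.3 and 47.0 in H89-treated WT, 32.5, 37.3 and 39.8 in control S434A and 44.5, 36.1 and 42.3 in H89-treated S434A. No library of another group reached down to control WT. It rose with H89 in WT by 1.10 (SE 0.10, adjusted p = 3.02e-06), was higher in control S434A by 0.84 (adjusted p = 4.01e-05), and gave 0.17 with H89 in S434A (adjusted p = 0.185). The call in WT was lost, at 0.90 to 0.99, without any 1 replicate of either H89 group or replicate 2 of control S434A. CYP4F2 (chromosome 19, 15988833 to 16008887), a vitamin K and fatty acid hydroxylase, was at 1.86, 2.08 and 1.70 CPM in control WT, 4.80, 4.90 and 5.23 in H89-treated WT, 4.74, 4.21 and 4.10 in control S434A and 3.73, 4.83 and 4.43 in H89-treated S434A. The WT libraries without H89 were below the other 9. Its log2 fold change was 1.21 in control S434A (SE 0.14, adjusted p = 2.5e-05), 1.40 with H89 in WT (SE 0.13, adjusted p = 3.97e-06) and -0.01 with H89 in S434A. The neighbouring CYP4F11 rose by 0.96 in control S434A and by 0.94 with H89 in WT, and the second was called at 1.13 with the trends removed. CYP4F12 rose by 0.32 and 0.33, of which the first did not pass at 0.04 with the trends removed or at 0.23 without replicate 1 of control S434A. CYP4V2, the gene mutated in Bietti crystalline dystrophy, passed in no comparison with no trend removed. It gave 0.02 with H89 in WT and 0.36 in S434A, and with the trends removed it passed as lower at -0.87 (adjusted p = 0.00499) and -0.66 (adjusted p = 0.0488). CYP4F2, CYP4F3 and CYP4F11 are close copies of each other, and how the counting shared reads among them is uncertain.

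The bile acid and sterol CYPs were dominated by CYP27A1 (chromosome 2, 219646472 to 219680016), the mitochondrial sterol 27-hydroxylase. It was at 266, 269.8 and 265 CPM in control WT, 289.6, 269.8 and 266 in H89-treated WT, 399.9, 343 and 275 in control S434A and 264, 261 and 257 in H89-treated S434A. All S434A libraries without H89 lay above control WT, with replicate 3 only slightly so. CYP27A1 was higher in control S434A by 0.35 (adjusted p = 0.0159) and fell with H89 in S434A by 0.38 (adjusted p = 0.0136), against 0.14 and -0.01 with the trends removed. CYP8B1, the sterol 12-alpha-hydroxylase of cholic acid synthesis, averaged 0.957 ± 0.11 CPM in control WT and 2.38 ± 0.67 in control S434A, a rise of 1.32 (adjusted p = 0.000521), and 1.49 ± 0.19 and 1.48 ± 0.32 with H89. CYP7A1, the rate-limiting enzyme of the classical pathway, stayed below 1 CPM on average in every group and gave -1.07 with H89 in WT (adjusted p = 0.0564). That value was called lower without replicate 1 of control S434A (adjusted p = 0.00797) and passed at -0.87 (adjusted p = 0.0335) with the trends removed.

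CYP24A1 (chromosome 20, 52769985 to 52790525), the 24-hydroxylase that inactivates vitamin D hormones, had the largest rise with H89 in WT of the 52 tested members. It was at 14.3, 12.9 and 12.99 CPM in control WT, 101, 93.4 and 104 in H89-treated WT, 35.0, 35.5 and 32.4 in control S434A and 95.5, 108 and 81.2 in H89-treated S434A. The libraries fell into 3 levels with no overlap: control WT, control S434A, and both H89 groups together. The log2 fold change was 1.36 in control S434A (SE 0.10, adjusted p = 1.66e-06), 2.89 with H89 in WT (SE 0.11, adjusted p = 5.24e-09) and 1.47 with H89 in S434A (SE 0.10, adjusted p = 8.86e-06). The effects of H89 differed by -1.43 (SE 0.14, adjusted p = 2.56e-05), and all 4 calls remained with the trends removed. CYP27B1, which makes the active hormone, averaged 1.25 ± 0.24 CPM in control WT and 2.16 ± 0.42 in control S434A and rose by 0.79 (adjusted p = 0.00793). CYP2R1, the vitamin D 25-hydroxylase, was at 0.387 to 0.587 CPM by group mean and passed in no comparison with no trend removed, but was called lower with H89 in S434A at -1.08 (adjusted p = 0.0442) with the trends removed.

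Steroid hormone CYPs were few. CYP19A1, the aromatase that makes oestrogens, averaged 14.8 ± 0.87 CPM in control WT, 10.8 ± 1.4 in H89-treated WT, 10.1 ± 3.1 in control S434A and 11.7 ± 0.37 in H89-treated S434A. It fell by 0.56 in S434A (adjusted p = 0.0266) and by 0.46 with H89 in WT (adjusted p = 0.048), the second called at -1.13 with the trends removed. With H89 in S434A it gave 0.22, against -0.46 (adjusted p = 0.00116) with the trends removed. CYP11A1, the side-chain cleavage enzyme that starts steroid synthesis, fell with H89 in WT by 0.77 (adjusted p = 0.038), or -0.67 (adjusted p = 0.0558) with the trends removed. CYP21A2, the 21-hydroxylase, has a near-identical pseudogene and shares 10.6% of its exon bases with TNXB, so its call of 1.45 in control S434A (adjusted p = 0.0055) is uncertain in origin. CYP20A1, a CYP with no settled substrate, fell by 0.55 in control S434A (adjusted p = 0.00645) and rose with H89 in S434A by 0.62 (adjusted p = 0.00554), where the trends removed gave -0.20 (adjusted p = 0.547) and -0.78 (adjusted p = 0.0389).

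The UGT2 genes lie together on chromosome 4. All 5 were called lower in control S434A and 3 of 5 with H89 in WT. Of all genes 11.3% and 15.8% were called lower there. UGT2A3 was called higher with H89 in S434A, where 15.2% of all genes were. With the trends removed, none of the 5 was called in control S434A and 3 passed as lower (29.9% of all genes). With H89 in WT 3 of 5 were then still called lower (14.8% of all genes). With H89 in S434A none was then called higher, and 1, UGT2B4, was called lower (3.13% of all genes). The summed level in control S434A was 28.7, 55.6 and 78.7 CPM in replicates 1 to 3, so this group varied more than control WT at 159.7 ± 4.93. Replicate 1 was also the library with the lowest share of ALB.

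UGT2B10 (chromosome 4, 69681712 to 69697741), which glucuronidates tertiary amines and nicotine, was at 69.5, 79.7 and 73.6 CPM in control WT, 23.4, 24.5 and 30.2 in H89-treated WT, 9.79, 22.4 and 33.1 in control S434A and 24.7, 29.3 and 30.2 in H89-treated S434A. Control WT stood above all others, and the other 3 groups overlapped. The log2 fold change was -1.77 in control S434A (SE 0.33, adjusted p = 0.000808), -1.51 with H89 in WT (SE 0.32, adjusted p = 0.0017) and 0.37 with H89 in S434A (adjusted p = 0.358). With the trends removed the first became -0.81 and the third turned to -0.36 (adjusted p = 0.00359), and the third was 0.01 without replicate 1 of control S434A. UGT2B11 (chromosome 4, 70065669 to 70080466), whose start is shown above, was at 4.18, 3.99 and 3.52 CPM in control WT, 0.914, 1.31 and 0.801 in H89-treated WT, 0.807, 1.27 and 1.40 in control S434A and 1.14, 1.16 and 1.45 in H89-treated S434A. As for UGT2B10, control WT was above every other library. Its log2 fold change was -1.74 in control S434A (adjusted p = 3.69e-05) and -1.93 with H89 in WT (adjusted p = 9.41e-06), against -0.69 and -1.55 with the trends removed. UGT2B genes are close copies, and how the counting shared reads among them is uncertain.

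UGT2B4 (chromosome 4, 70345883 to 70391732), which glucuronidates bile acids, was at 45.7, 46.0 and 45.1 CPM in control WT, 11.2, 8.65 and 11.7 in H89-treated WT, 8.82, 16.2 and 21.2 in control S434A and 9.30, 12.9 and 10.8 in H89-treated S434A. Here too control WT was highest and the other 3 groups overlapped. It fell with H89 in WT by 2.11 (SE 0.26, adjusted p = 3.37e-05) and in control S434A by 1.56 (SE 0.26, adjusted p = 0.000369), and the latter became -0.62 with the trends removed. With H89 in S434A UGT2B4 gave -0.49 (adjusted p = 0.139), but was called lower at -1.01 (adjusted p = 1.05e-05) with the trends removed. It also passed there at -0.77 (adjusted p = 0.000808) without replicate 1 of control S434A. UGT2B7 (chromosome 4, 69917081 to 69978705), the morphine glucuronidating enzyme, was at 23.4, 21.8 and 24.1 CPM in control WT, 16.1, 14.7 and 13.6 in H89-treated WT, 7.86, 9.97 and 13.4 in control S434A and 16.3, 17.8 and 18.4 in H89-treated S434A. The 4 groups of UGT2B7 did not overlap, and control S434A was lowest. It fell by 1.15 in control S434A (SE 0.17, adjusted p = 0.000134) and by 0.65 with H89 in WT (adjusted p = 0.00444), and rose by 0.75 with H89 in S434A (adjusted p = 0.00464). With the trends removed the 3 values were -0.10, -0.03 and 0.22, and none passed.

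UGT2A3 (chromosome 4, 69794181 to 69817522), a UGT of liver and gut that acts on bile acids, was at 13.1, 13.8 and 11.6 CPM in control WT, 15, 12.9 and 19.6 in H89-treated WT, 1.40, 5.76 and 9.56 in control S434A and 13.9, 17.7 and 15.5 in H89-treated S434A. Only control S434A was apart, and its replicates ran over a wide range. UGT2A3 fell in control S434A by 1.20 (SE 0.46, adjusted p = 0.0453) and rose with H89 in S434A by 1.49 (SE 0.46, adjusted p = 0.0215). These became -0.74 and 1.03 without replicate 1 of control S434A, and -0.29 and 0.50 with the trends removed. The first had an adjusted p of 0.0521 to 0.0996 in 10 of the other 11 fits that left out 1 library, and the second missed 0.05 without replicate 2 of control S434A (1.39) or replicate 2 or 3 of H89-treated S434A (1.27 and 1.38). The UGT1A genes, which glucuronidate bilirubin and many drugs, are one locus of alternative first exons with shared later exons. UGT1A1 shares 50.1% of its exon bases with other genes and UGT1A3 80.0%, so their counts cannot be assigned to one gene with certainty. UGT1A1 averaged 4.68 ± 0.33 CPM in control WT and 4.86 ± 0.56 in control S434A and fell with H89 in S434A by 0.50 (adjusted p = 0.0201). UGT1A3 averaged 0.159 ± 0.028 CPM in control WT, 0.449 ± 0.093 in control S434A and 0.630 ± 0.05 in H89-treated WT. Its rises were 1.45 in control S434A (adjusted p = 0.0179) and 1.94 with H89 in WT (adjusted p = 0.00145). Only 5 libraries had at least 10 counts of UGT1A3, among them all of H89-treated WT at 15, 14 and 13. Its rise with H89 in WT, and with it the difference of its H89 effects, is thus not independent of the choice of members.

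The sulfotransferases held the most counted member. SULT2A1 (chromosome 19, 48373724 to 48389572), which sulfates DHEA and bile acids, was at 1257, 1199 and 1231 CPM in control WT, 309, 285 and 329 in H89-treated WT, 275, 328 and 459 in control S434A and 302, 335 and 331 in H89-treated S434A. Control WT was the highest group, and the other 3 overlapped. SULT2A1 fell by 2.00 with H89 in WT (SE 0.15, adjusted p = 7.05e-07) and by 1.80 in control S434A (SE 0.15, adjusted p = 3.58e-06), and gave -0.13 with H89 in S434A (adjusted p = 0.47). After trend removal the second was -0.95, below the fold threshold, and the first -1.27. The third passed at -0.33 (adjusted p = 0.000734) after trend removal and at -0.29 (adjusted p = 0.0408) without replicate 1 of control S434A.

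SULT1A1 (chromosome 16, 28616517 to 28634946), the main phenol sulfotransferase of liver, was at 819.9, 839 and 804 CPM in control WT, 335, 328 and 338 in H89-treated WT, 500.5, 469 and 499 in control S434A and 345, 326 and 317 in H89-treated S434A. Control S434A lay between control WT and the H89 groups with no overlap. It fell in control S434A by 0.75 (SE 0.05, adjusted p = 8.99e-07), with H89 in WT by 1.30 (SE 0.05, adjusted p = 6.83e-09) and with H89 in S434A by 0.57 (SE 0.05, adjusted p = 3.16e-05). With the trends removed these were -1.51, -1.95 and -0.42. SULT1A2 (chromosome 16, 28603264 to 28608371), its close copy, was at 123, 134 and 128 CPM in control WT, 54.9, 53.6 and 52.7 in H89-treated WT, 88.1, 82.2 and 80.1 in control S434A and 57.6, 50.8 and 57.6 in H89-treated S434A. Its order of groups was that of SULT1A1. SULT1A2 fell with H89 in WT by 1.26 (SE 0.07, adjusted p = 5.23e-08), or 0.76 with the trends removed, and in control S434A by 0.62. SULT1A1, SULT1A2 and SULT1A3 are near-identical in parts, so the split of reads among them is uncertain, and SULT1A3 shares 70.7% of its exon bases with a readthrough gene.

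SULT1C2 (chromosome 2, 108905095 to 108926371) was at 2.28, 2.21 and 2.15 CPM in control WT, 0.503, 1.05 and 1.13 in H89-treated WT, 1.24, 1.61 and 1.97 in control S434A and 0.877, 1.07 and 1.01 in H89-treated S434A. Control WT was above the other 9 libraries, and control S434A lay next. It fell with H89 in WT by 1.30 (SE 0.24, adjusted p = 0.000609) and in S434A by 0.71 (adjusted p = 0.0398), and gave -0.46 in control S434A (adjusted p = 0.103). Trend removal gave -1.32, a call, for the effect in S434A, and -0.49 in control S434A, which passed (adjusted p = 0.0344). SULT1E1 (chromosome 4, 70706930 to 70725863), the oestrogen sulfotransferase, was at 2.44, 2.12 and 2.67 CPM in control WT, 1.10, 0.464 and 1.27 in H89-treated WT, 0.269, 0.831 and 1.61 in control S434A and 0.921, 1.02 and 0.847 in H89-treated S434A. Control WT was again highest, with the other groups mixed. SULT1E1 fell in control S434A by 1.40 (SE 0.41, adjusted p = 0.0131) and with H89 in WT by 1.37 (SE 0.40, adjusted p = 0.01), and the first was under the fold threshold without replicate 1 of control S434A and gave -0.39 (adjusted p = 0.209) with the trends removed. SULT1B1, a thyroid hormone sulfotransferase below 1 CPM in every group mean, rose with H89 in S434A by 1.32 (adjusted p = 0.0253), against 0.03 with the trends removed. SULT1C4 and SULT1A3 passed in no comparison with no trend removed. SULT1C4 passed, once the trends were removed, at 0.86 in control S434A (adjusted p = 0.00147) and at -0.89 with H89 in S434A (adjusted p = 0.00282), and its difference of H89 effects was called at -1.09 (adjusted p = 0.00396).

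Among the glutathione transferases, 7 of 10 GST members passed as lower in control S434A, 7 with H89 in WT and 7 with H89 in S434A. Of all genes 29.3%, 30.9% and 22.7% passed as lower in the same order. With the trends removed these were 6, 7 and 9 GST members, against 29.9%, 35.4% and 22.3% of all genes. GSTA1 (chromosome 6, 52656169 to 52668658), the main alpha-class GST of hepatocytes, was at 249.7, 250 and 251 CPM in control WT, 36.0, 35.5 and 44.7 in H89-treated WT, 57.6, 68.4 and 91.2 in control S434A and 42.6, 36.8 and 42.2 in H89-treated S434A. Control S434A lay between control WT and the H89 groups, with no overlap. The log2 fold change of GSTA1 was -1.79 in control S434A (SE 0.15, adjusted p = 3.58e-06), -2.69 with H89 in WT (SE 0.16, adjusted p = 7.93e-08) and -0.84 with H89 in S434A (SE 0.15, adjusted p = 0.00159). The first became -0.87 with the trends removed, which ended the call, and the second -1.76.

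GSTA2 (chromosome 6, 52614885 to 52628273), with which GSTA1 shares nearly all bases of the printed window, was at 31.4, 29.6 and 31.7 CPM in control WT, 2.88, 2.79 and 4.10 in H89-treated WT, 6.08, 6.76 and 9.09 in control S434A and 2.37, 2.27 and 3.14 in H89-treated S434A. The order of groups was that of GSTA1. It fell by 2.08 in control S434A (SE 0.19, adjusted p = 6.07e-06), by 3.25 with H89 in WT (SE 0.20, adjusted p = 1.28e-07) and by 1.49 with H89 in S434A (SE 0.20, adjusted p = 0.000315). After removal of the trends these were -0.96, -2.28 and -1.71. How reads were split between GSTA1 and GSTA2 is uncertain. GSTA4, which detoxifies hydroxynonenal, averaged 38.6 ± 1.7 CPM in control WT and 25.8 to 26.3 in the other groups.

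GSTM3 (chromosome 1, 110276554 to 110283660), a mu-class GST of testis and brain, was at 124.1, 123.5 and 123.6 CPM in control WT, 30.4, 29.6 and 31.9 in H89-treated WT, 65.0, 62.8 and 72.9 in control S434A and 34.2, 31.5 and 31.3 in H89-treated S434A. It again had 3 separate levels, with both H89 groups lowest. GSTM3 fell by 0.89 in control S434A (SE 0.07, adjusted p = 2.19e-06), by 2.02 with H89 in WT (SE 0.07, adjusted p = 5.01e-09) and by 1.05 with H89 in S434A (SE 0.07, adjusted p = 8.24e-06), the last being -0.98 without replicate 3 of control S434A. GSTO1 (chromosome 10, 105995114 to 106027217), an omega-class thioltransferase, was at 595, 603 and 599 CPM in control WT, 248, 244 and 254 in H89-treated WT, 356, 341 and 369 in control S434A and 258, 257 and 237 in H89-treated S434A. The order was that of GSTM3, and the log2 fold changes were -0.75 in control S434A (SE 0.05, adjusted p = 1.01e-06), -1.27 with H89 in WT (SE 0.05, adjusted p = 8.88e-09) and -0.50 with H89 in S434A (SE 0.05, adjusted p = 6.91e-05). After removal of the trends the second was -0.61, which ended the call. GSTZ1, which degrades tyrosine metabolites, fell with H89 in WT by 1.18 (adjusted p = 2.15e-06) and GSTO2 by 0.87 (adjusted p = 0.000292), the latter called at -1.47 with the trends removed. GSTM2 and GSTM4, which are close copies, rose in control S434A by 0.56 (adjusted p = 0.0208) and 0.36 (adjusted p = 0.00926), and neither passed with the trends removed, at 0.19 (adjusted p = 0.354) and -0.04 (adjusted p = 0.575). GSTK1, a mitochondrial and peroxisomal GST, averaged 45.5 to 52.1 CPM by group and passed in no comparison.

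The microsomal enzymes were lower in all 3 other groups than in control WT. MGST2 (chromosome 4, 140586922 to 140661899), which can make leukotriene C4, was at 752, 766 and 727 CPM in control WT, 225, 202 and 219 in H89-treated WT, 181, 219 and 291 in control S434A and 199, 216 and 191 in H89-treated S434A. Control WT was apart and the other groups overlapped. MGST2 fell by 1.70 in control S434A (SE 0.14, adjusted p = 2.78e-06) and by 1.80 with H89 in WT (SE 0.14, adjusted p = 7.67e-07), gave -0.19 with H89 in S434A (adjusted p = 0.267), and the first and second calls remained with the trends removed. Without replicate 1 of control S434A the effect in S434A passed at -0.34 (adjusted p = 0.0108). MGST3 (chromosome 1, 165600450 to 165631033), a related peroxidase, was at 99.0, 101 and 96.5 CPM in control WT, 30.6, 30.01 and 33.5 in H89-treated WT, 44.0, 40.9 and 49.2 in control S434A and 34.4, 34.1 and 34.0 in H89-treated S434A. Control S434A was between the WT group without H89 and the H89 groups. MGST3 fell by 1.14 in control S434A (SE 0.08, adjusted p = 7.89e-07), by 1.66 with H89 in WT (SE 0.08, adjusted p = 1.71e-08) and by 0.39 with H89 in S434A (adjusted p = 0.00259). MGST1, the abundant glutathione transferase of the endoplasmic reticulum, was at 362, 358 and 361 CPM in control WT and at 99.98, 194 and 231 in control S434A. It fell there by 1.04 (adjusted p = 0.00233), or 0.37 with the trends removed, and replicate 1 of S434A was far below the other two.

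**Figure D4:**
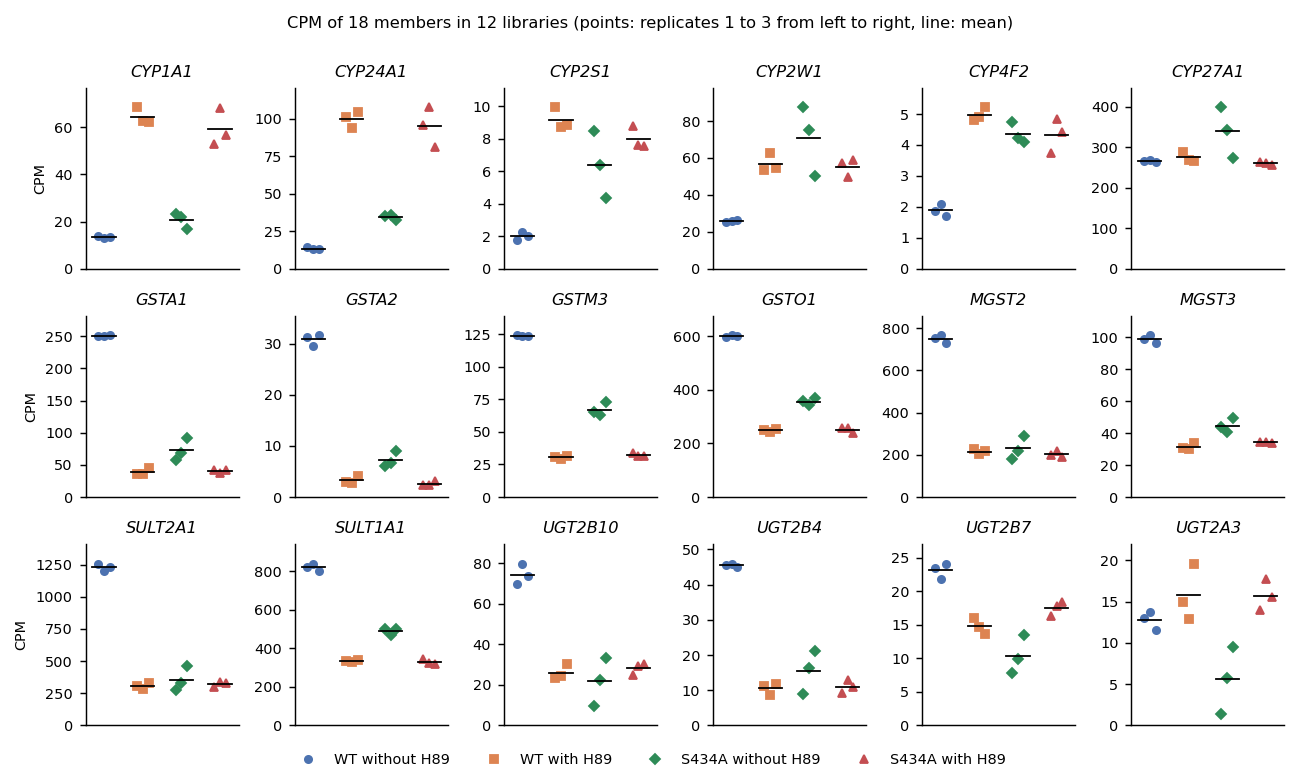
CPM (linear axis from 0) of 18 members in each of the 12 libraries, points by group. CYP1A1 and CYP24A1 are highest in the 6 H89 libraries, the GST, MGST, SULT and UGT2B panels are highest in the 3 WT libraries without H89, and replicate 1 of control S434A is the lowest of its group in UGT2B10, UGT2A3 and MGST2.

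Of the 52 tested members, 32 were called in at least 1 comparison and 20 in none. The share of all genes called in at least 1 comparison was not counted, so these counts do not set the members apart. The log2 fold changes of those 20 ran from -1.07 for CYP7A1 with H89 in WT to 0.84 for CYP3A43 with H89 in S434A, the difference of H89 effects left aside. Trend removal gave 6 of the 20 a call in at least 1 comparison: CYP19A1, CYP20A1, CYP2R1, CYP3A43, GSTO2 and SULT1C4. Without replicate 1 of control S434A only CYP7A1 of the 20 was called, and with RLE factors CYP7A1 and GSTO2, which leaves 13 called in none of these fits.

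Genes that work with these enzymes were counted in 6 lists, for members that passed the test at any fold. Of all genes tested, 29.0% passed as higher and 29.3% as lower in control S434A, 38.8% and 30.9% with H89 in WT, and 29.3% and 22.7% with H89 in S434A, against 29.9% and 29.9%, 38.1% and 35.4%, and 20.9% and 22.3% with the trends removed. Of 21 tested nuclear receptors and other regulators, 8 were higher and 2 lower in control S434A, 12 and 3 with H89 in WT, and 5 and 3 with H89 in S434A. These were 8 and 5, 12 and 5, and 10 and 1 with the trends removed. NR1H3, the oxysterol receptor LXR alpha, fell with H89 in WT by 1.25 and FOXA1, a liver pioneer factor, rose by 0.94. Of 15 electron donors and cofactor enzymes, 3 were higher and 8 lower in control S434A, 6 and 5 with H89 in WT, and 6 and 4 with H89 in S434A. The balance turned with the trends removed in control S434A, at 5 and 3, and with H89 in S434A, at 2 and 7, and was 6 and 6 with H89 in WT. CYB5A, the cytochrome b5 that feeds electrons to CYPs, fell with H89 in WT by 0.90, or 1.81 with the trends removed, and FDXR, the reductase of the mitochondrial CYPs, by 0.91. Of 17 drug and bile acid transporters, 9 were higher and 2 lower in control S434A, 11 and 4 with H89 in WT, and 5 and 5 with H89 in S434A, against 8 and 2, 8 and 5, and 4 and 7 with the trends removed. ABCC1, an exporter of glutathione conjugates, averaged 48.6 CPM in control WT, 164 in H89-treated WT, 151 in control S434A and 146 in H89-treated S434A. ABCC5, a cyclic nucleotide exporter, rose with H89 in WT by 1.71, or 1.01 with the trends removed.

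The lists of other oxidizing, reducing and conjugating enzymes had more members lower than higher in control S434A and with H89 in WT. Of 32 oxidoreductases and hydrolases 17 were lower and 4 higher in control S434A, 20 and 2 with H89 in WT, and 21 and 3 with H89 in S434A, against 16 and 7, 22 and 3, and 19 and 1 with the trends removed. Of 17 steroid dehydrogenases, reductases and sulfatase, 11 were lower and 2 higher in control S434A and again with H89 in WT, and 6 and 4 with H89 in S434A, against 11 and 2, 12 and 3, and 8 and 2 with the trends removed. HSD17B2, which inactivates oestradiol and testosterone, averaged 222 CPM in control WT, 49.2 in H89-treated WT, 113 in control S434A and 47.5 in H89-treated S434A, and HSD17B8 fell with H89 in WT by 2.04, or 1.32 with the trends removed. AKR1B1, the aldose reductase, averaged 429, 142, 245 and 139.5 CPM in the same order, and CBR1, a carbonyl reductase, fell with H89 in WT by 1.68. Of 6 other conjugating enzymes all 6 were lower in control S434A and 4 with H89 in WT, while 2 were lower and 3 higher with H89 in S434A. After trend removal 5, 4 and 1 were lower in the same order, and 1 was higher with H89 in S434A. The lower ones with H89 in WT included SLC27A5, the bile acid CoA ligase, which fell with H89 in WT by 1.73. In the S434A to WT comparison with H89, no gene of the 6 lists passed. Chosen after their values were seen, AHR rose with H89 in WT by 1.13 (adjusted p = 0.0118), or 0.35 with the trends removed. With H89 in S434A AHR gave 0.85 (adjusted p = 0.055), which turned to -0.43 (adjusted p = 0.0151) with the trends removed. The vitamin D receptor gene VDR was at most 0.377 CPM in every library and was not tested.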

How the data were processed

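RNA was sequenced in 12 HepG2 libraries of 4 groups of 3 biological replicates. The authors deposited raw counts per gene. They counted fragments with featureCounts 2.0.1 on an hg19 annotation, per the file headers, summing exons by gene_id in paired mode and setting nothing for strand, multimapping or overlapping features. Without strand, reads of overlapping and antisense genes cannot be told apart. Alignment with Bowtie 0.12.2 to hg19 is named per the submitters' processing notes. The sources used here do not give trimming, library kit or strandedness.

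Symbols were matched for 58847 of 62475 identifiers. GC content came from GENCODE v29 transcripts, of another build, by identifier for 14279 of the 14435 genes tested, and the UGT1A3 symbol came from the same source. Gene positions are hg19 as deposited, and promoter windows are RefSeq GRCh38.p14. Shared exon bases were found from the deposited exon coordinates.

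A single model over all 12 libraries was fitted with edgeR 4.0.16 in R 4.3.3, using TMM factors, a low-count filter by group (filterByExpr, minimum count 10) and the robust quasi-likelihood F test. Benjamini-Hochberg adjustment ran over 14435 genes in each of 5 comparisons. A call needed a fold over 2 and an adjusted p under 0.05. CPM values are TMM-scaled, and an SE is the log2 fold change divided by the square root of F. Total counts of 17562754 to 37187794 set the precision, which the spread between replicates measures. Standard deviations are over 3 libraries.

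Members, roles, gene lists and tests were chosen with earlier results of these data known. Values in all 12 libraries are given for up to 6 called members of each family whose highest group mean reaches 2 CPM, by smallest p, and for the member of each family with the most counts per kilobase. Up to 2 genes of each list with the smallest p were named. A few genes that these rules name are not reported here. MGST1 is added outside this rule, chosen after its values were seen.

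Alternatives were RLE factors, DESeq2 1.42.0, no filter on low counts, a block for the replicate number, a fit of only the groups compared, removal of each library's GC and length trend (an offset from splines of 5 degrees of freedom), combinations of these, and leaving out each library. On simulated counts with 200 changed genes, calls were made for 94% of 50 genes changed 3-fold between control S434A and control WT (14241 genes), 96% with H89 in WT (14277), 94% with H89 in S434A (14256), 84% between the H89 groups (14237) and 58% for the difference of effects (14239). In that order, 50, 0, 58, 1 and 9 unchanged genes were called. The changed genes were drawn from those averaging over 2 CPM, and all other genes had the same mean in every group. No GC or length trend was put in, so these rates need not hold for the members. Figures were drawn with matplotlib 3.10.9 (Python 3.11.15).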

Additional observations from a re-analysis of the deposited data

Results flagged for a closer look

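The effect of H89 differed between S434A and WT for 20 members, by the interaction of genotype and treatment in edgeR with a difference over 1 on the log2 scale and an adjusted p under 0.05. Differences are S434A minus WT. Of all genes tested, 11.7% had a positive and 12.4% a negative difference called. The members with positive differences were all among those called lower in control S434A against control WT. Those with negative differences, CYP4F11 aside, were among those called higher there. Both comparisons use the same control libraries and no member was called between the H89 groups, so this is not a separate result. Conjugating enzymes made up 10 of the 11 positive differences: UGT2B11 at 2.05, UGT2B10 at 1.88, SULT2A1 at 1.87, GSTA1 at 1.86, GSTA2 at 1.76, UGT2B4 at 1.63, MGST2 at 1.61, UGT2B7 at 1.39, MGST3 at 1.27 and MGST1 at 1.07. The other was CYP3A7 at 1.78. Of these, MGST2 at 1.27 and MGST3 at 1.29 were still called with the GC and length trends removed, and the other 9 then lay between 0.25 and 0.96. CYPs made up 8 of the 9 negative differences: CYP2S1 at -1.88, CYP21A2 at -1.63, CYP2W1 at -1.5, CYP24A1 at -1.43, CYP4F2 at -1.41, CYP8B1 at -1.32, CYP2D6 at -1.26 and CYP4F11 at -1.11. The other was UGT1A3 at -1.98. UGT1A3 reached 10 counts in only 5 libraries, among them all of H89-treated WT, so its difference is not independent of the choice of members. With the trends removed CYP2W1 moved to -0.81 and the other 8 stayed called. MGST1 and CYP4F11 were under the fold threshold without replicate 1 of control S434A, at 0.79 and -0.97.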

How the results depend on the processing

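Counts of called members are printed here where an alternative moved them by more than 1.5 times. In control S434A against control WT, the 13 lower calls became 8 with only the groups compared, 3 without the GC and length trends, 3 with the replicate block added to that, and 6 with the trends removed and without replicate 1 of control S434A. For H89 in WT, the 8 higher calls became 5 with RLE factors, DESeq2, no filter on low counts or only the groups compared. For H89 in S434A, the 6 higher calls became 3 with only the groups compared and 2 with the trends removed, with the block added or without replicate 1, and the 2 lower calls became 6, 5 and 5. The 11 higher differences of H89 effects became 4, 4 and 6 in the same order. Leaving out 1 library at a time gave 7 to 9 higher and 9 to 14 lower calls in control S434A against control WT, 5 to 8 and 15 to 19 for H89 in WT, 3 to 7 and 1 to 3 for H89 in S434A, 11 to 16 and 8 to 10 for the difference, and 0 to 0 in both directions with H89. The count of 5 came without replicate 2 of control S434A or any replicate of H89-treated S434A. The count of 3 came without replicate 2 of control S434A or replicate 2 or 3 of H89-treated S434A, and that of 1 without replicate 3 of control S434A. The cause was not tested. Of 53 calls of named members, 31 stayed and 22 missed the fold or p threshold with the trends removed, and none reversed. The replicate block alone ended none of the 53 and gave 8 higher and 13 lower in control S434A against control WT. The labels do not say whether replicate numbers pair the samples. Deviations of same-numbered libraries correlated at -0.153 to 0.471, with a median of 0.026 over 18 pairs. Those of differently numbered libraries correlated at -0.484 to 0.304, with a median of -0.015 over 36 pairs. With 3 libraries in each group these values cannot settle the pairing. Low counts limit UGT1A3, SULT1A3, SULT1B1, CYP3A4, CYP3A7, CYP7A1 and CYP2R1, which lay under 1 CPM in every group mean.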

Other observations

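Chosen after their values were seen, a pair of genes from the fixed lists ranged widely in control S434A. NFE2L2, the regulator that acts on antioxidant response elements of GST genes, was at 37.2 to 37.91 CPM in control WT, 105.8 to 140.0 in H89-treated WT, 10.39 to 56.61 in control S434A and 109.6 to 132.2 in H89-treated S434A. POR, the reductase that feeds electrons to microsomal CYPs, was at 290.1 to 294.2 CPM in control WT, 462.2 to 560.2 in H89-treated WT, 437.3 to 706.5 in control S434A and 389.3 to 443.9 in H89-treated S434A.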
